A study of Mus musculus with 8 samples.

Results

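The genes described here are 38 members of the p53 pathway, the cell cycle inhibitors and the apoptosis machinery, taken by symbol from a table of 23284 genes, in which all 38 were found. They were measured by sequencing of polyadenylated RNA from mouse alveolar organoids, cultures of lung cells grown in drops of matrigel. The cells came from mice with an Sftpc-eGFP transgene, in which green fluorescent protein (GFP) is made under the control of the surfactant protein C gene, which marks the alveolar type 2 (AT2) cell. From 4 lines of organoids, named SN2285, SN2286, SN2293 and SN2294, GFP-positive and GFP-negative cells were sorted, so that each group has 4 libraries, 8 in all. The purpose stated by the submitters was to compare expression between these sorts. All libraries share the transgene and the medium; the labels name no allele of Trp53 or of any other member, no agent and no age, and leave unsaid whether the lines derive from separate animals. The p-values of the main test, which has no term for line, rest on the spread between the 4 libraries of each sort. They do not measure how the difference between the sorts varies from line to line, and they speak for these lines only. Levels are normalised counts relative to the scaled library size (CPM, the usual unit for library-scaled counts), given in the order of lines SN2285, SN2286, SN2293 and SN2294. The log2 fold change (log2FC) is given with its standard error (SE) or 95% interval, and a negative value means a lower level in GFP-positive cells.

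The transcription factor p53 is held low by Mdm2 and Mdm4, which bind it and mark it for degradation or block its activity. When DNA is damaged or growth signals are abnormal, p53 accumulates and switches on genes for cell cycle arrest, DNA repair and cell death, as well as Mdm2 itself, which closes a feedback loop. Cell death through mitochondria depends on the balance within the Bcl2 family, whose members either open the outer membrane (Bax), promote that step (Bbc3, Pmaip1, Bcl2l11, Bid) or prevent it (Bcl2, Bcl2l1, Mcl1). In the lung, AT2 cells are the stem cells of the alveolus, and p53 is known to limit their growth in tumours.

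Many p53 targets carry the p53 half-site, a motif of 10 bases that reads as the same motif on both strands. Promoter windows of RefSeq (build GRCm38.p6, from 250 bases before to 50 bases after a start site) were matched by symbol for 30 members. Those without a window were Xpc, Ddb2, Zmat3, Pmaip1, Trp53inp1, Tnfrsf10b, Rrm2b and Cdkn1c. At least 1 window held a half-site for 10 of the 30 (33.3%) and for 2582 of all 27025 genes in the table (9.55%). Counted by window, the shares were 11 of 42 (26.2%) and 2745 of 32851 (8.36%). A pair of half-sites at most 13 bases apart was found for Cdkn1a alone among the members and for 20 genes in all (0.0740%). A looser match needs only the central bases of adjoining half-sites (C, A or T, A or T, G). It was found for 5 of 30 members (16.7%: Aen, Bbc3, Cdkn1a, Plk2 and Trp53) and for 2212 of all 27025 genes (8.2%). In Cdkn1a it joins the marked half-site nearer the start site to unmarked bases directly after it. Half-sites were found for 9 of 20 matched members that were lower in GFP-positive cells and for 1 of 8 without a call, which was Bax. Of the members without a window, Pmaip1, Trp53inp1 and Zmat3 were lower and the others uncalled. Half-sites were not counted by call over all genes, so these shares have no background to be read against. The following stretches of 60 bases show the half-sites, in capitals, of an arrest gene, a pair of feedback genes and a stress gene that were lower, and of Bax. These matches are descriptions of the sequence and say nothing about binding in these cells.
Cdkn1a, chr17:29090892-29090951, + strand, the upstream of its listed start sites, with both half-sites 12 bases apart: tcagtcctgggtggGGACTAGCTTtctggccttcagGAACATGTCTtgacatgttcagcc
Mdm2, chr10:117710910-117710969, − strand: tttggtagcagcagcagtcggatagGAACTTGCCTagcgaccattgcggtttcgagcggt
Ccng1, chr11:40755437-40755496, − strand: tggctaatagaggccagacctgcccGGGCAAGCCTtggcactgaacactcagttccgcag
Sesn1, chr10:41887241-41887300, + strand: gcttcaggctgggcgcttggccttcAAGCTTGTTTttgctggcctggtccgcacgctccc
Bax, chr7:45467065-45467124, − strand: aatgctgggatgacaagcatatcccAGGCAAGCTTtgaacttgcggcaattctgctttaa

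Most members were lower in GFP-positive cells. Of the 38, 37 passed the filter on low counts, and 23 of these (62.2%) were lower and 1 (2.70%) was higher at a false discovery rate (FDR) of 0.05 in edgeR's quasi-likelihood test, with 13 uncalled. Over all 12848 genes tested, 21.8% were lower and 18.9% higher. The median log2 fold change was −0.34 for the members and −0.01 for all genes tested, so most of the differences were small. Only 6 members differed by 2-fold or more in the lower direction (16.2%, against 11.1% of all genes), namely Pmaip1, Cdkn2a, Trp53inp1, Phlda3, Eda2r and Bcl2, and Bcl2l1 was the 1 member higher by 2-fold (2.70%, against 4.41%). The groups did not overlap in CPM for 24 members (64.9%, against 39.5% of all genes), 22 of them lower (59.5%, against 21.6% of all genes) and 2 higher (5.41%, against 18.0%). All 24 called members went in 1 direction in all 4 lines. A call on the same libraries makes this likely, so it is no separate support.

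**Figure D1:**
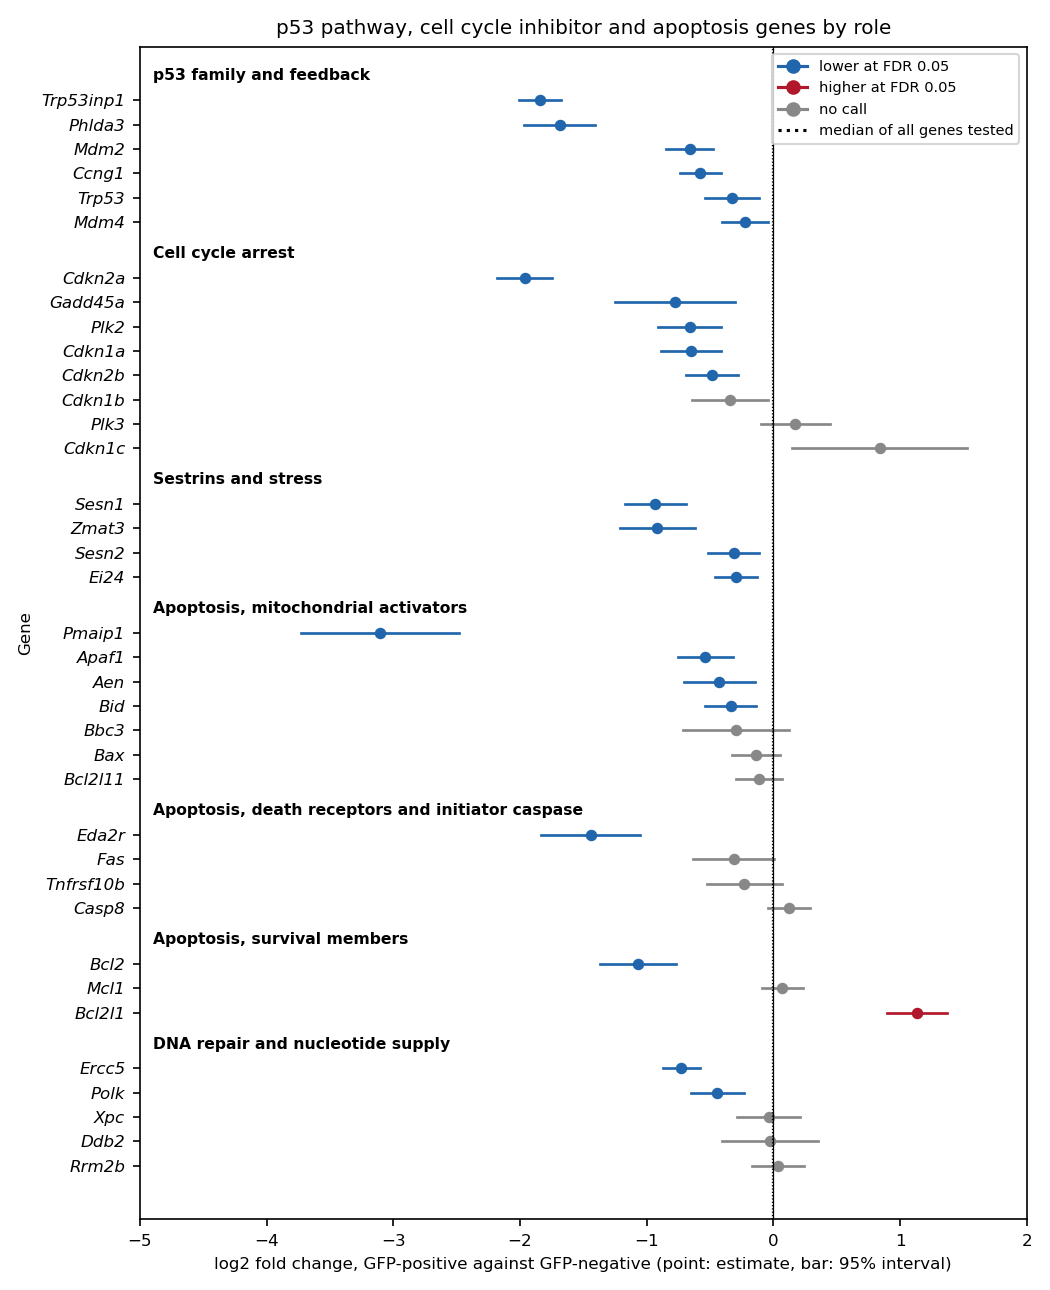
Log2 fold change of the 37 tested genes between GFP-positive and GFP-negative cells (x axis), grouped by role (y axis), with the estimate as a point and the 95% interval as a bar; colours give the call at FDR 0.05 and the dotted line is the median of all genes tested. The feedback, arrest and stress genes lie mostly left of 0, the repair genes Xpc, Ddb2 and Rrm2b lie on it, and Bcl2l1 is the 1 gene called to the right.

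Total counts ran from 5910344 (GFP-negative, line SN2294) to 16032633 (GFP-positive, line SN2294). The sorts differed in their cells as well as in these genes. The summed level of 8 AT2 markers was 35661 to 40754 CPM in the GFP-positive sort and 3647 to 5256 CPM in the GFP-negative sort, and all 8 were called higher. All 8 basal cell markers (54.3 to 109 CPM against 2033 to 2547 CPM) and all 6 tested fibroblast markers, of 7 listed (10.8 to 20.2 CPM against 380 to 694 CPM), were called lower. Of 5 club cell markers, 4 were tested and 2 called lower, Cyp2f2 and Cbr2 (summed level of the 5 11.6 to 272 CPM against 665 to 1402 CPM). Scgb1a1 lay in the other direction without a call (19.5 ± 20.8 CPM against 5.23 ± 2.31 CPM, log2FC 1.83). Scgb3a1 was uncalled too (log2FC −0.69). The 9 measured leukocyte markers summed to 92.5 CPM in the GFP-negative library of line SN2294 and to 11.6 to 30.4 CPM in the other 7 libraries, with Cd3e at 0 everywhere. The endothelial sum was at most 2.52 CPM and the ciliated sum at most 16.2 CPM, while the AT1 sum ranged from 1341 to 2144 CPM over both groups, most of it Aqp5. Of the 6 AT1 markers, 3 were called higher (Ager 8.96-fold, Rtkn2 2.52-fold and Aqp5 1.34-fold) and Pdpn was called lower (3.83-fold). Trp63, which encodes the p53 relative that maintains basal cells and recognises many of the same DNA sites, stood at 3.6 ± 1.54 CPM in the GFP-positive sort and 189 ± 9.8 CPM in the GFP-negative sort (SD, n = 4). The part of these differences in the results below was not tested. In bulk RNA, fewer cells of a type and less RNA per cell cannot be told apart.

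All 6 tested genes of the p53 family and its feedback loop were lower in GFP-positive cells (100%, against 21.8% of all genes), Mdm4 only narrowly. The gene for p53 itself, Trp53, differed little. It stood at 70.2, 64.1, 71.5 and 83.0 CPM in the GFP-positive sort and at 85.7, 93.3, 80.6 and 103 CPM in the GFP-negative sort, 1.25-fold lower (log2FC −0.32, SE 0.10, adjusted p = 0.020, edgeR). The groups overlapped, since the GFP-positive library of line SN2294 lay above the GFP-negative one of line SN2293, but within each line the GFP-positive library was the lower one. In the fit without line, the call was lost without SN2286's GFP-positive library (adjusted p = 0.063) or the GFP-negative one of line SN2294 (0.052). In the paired fit, with line as a term, the adjusted p of Trp53 was 0.0025 (edgeR). Mdm2, the main inhibitor and target of p53, stood at 95.4, 116, 102 and 104 CPM in the GFP-positive sort and at 161, 175, 177 and 146 CPM in the GFP-negative sort, without overlap (1.58-fold lower, log2FC −0.66, SE 0.08, adjusted p = 6.3e-05). Its relative Mdm4 was 1.17-fold lower (log2FC −0.22, SE 0.08), at the edge of the threshold (adjusted p = 0.049), and its call was lost without any 1 of 6 libraries, the exceptions being the GFP-negative ones of lines SN2285 and SN2294 (adjusted p up to 0.16). Mdm4 lost it in 10 of 18 alternatives in all, also with DESeq2 size factors (adjusted p = 0.056), in the DESeq2 test (0.069) and with no filter on low counts (0.070). In the paired fit its adjusted p was 0.017, and 0.11 when line SN2293 was left out of that fit.

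The feedback targets Trp53inp1 and Phlda3 showed the widest gaps of this group. Trp53inp1, which encodes a nuclear protein that promotes p53 activity and autophagy, stood at 52.3, 59.3, 53 and 47.8 CPM in the GFP-positive sort and at 187, 183, 198 and 193 CPM in the GFP-negative sort (3.59-fold lower, log2FC −1.84, SE 0.08, adjusted p = 1.3e-08). The highest GFP-positive library (59.3 CPM) lay far below the lowest GFP-negative one (183 CPM). Phlda3, an inhibitor of the survival kinase Akt, was at 46.1, 29.5, 40.9 and 33.9 CPM against 124, 126, 106 and 129 CPM (3.22-fold lower, log2FC −1.69, SE 0.13, adjusted p = 1.4e-06). Ccng1, which encodes cyclin G1 and acts on Mdm2, was abundant in both sorts, at 309 to 360 CPM against 482 to 545 CPM (1.49-fold lower, log2FC −0.58, SE 0.07, adjusted p = 6.2e-05). Trp73, the remaining p53 relative among the members, was close to absent and was not tested. It had 1, 1, 0 and 0 counts in the GFP-positive sort and 5, 24, 12 and 7 counts in the GFP-negative sort.

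Of the 8 cell cycle arrest genes, 5 were lower and 3 were uncalled (62.5% called, against 40.7% of all genes). Cdkn1a, the p21 inhibitor of cyclin-dependent kinases and the best known arrest target of p53, was well expressed in both sorts. Its levels were 146, 143, 171 and 114 CPM in the GFP-positive sort and 243, 210, 230 and 218 CPM in the GFP-negative sort, without overlap (1.57-fold lower, log2FC −0.65, SE 0.11, adjusted p = 4.3e-04). The larger difference was in Cdkn2a, a locus that encodes both an inhibitor of Cdk4 and Cdk6 and the Arf protein, which blocks Mdm2; a count per gene cannot tell these products apart. Cdkn2a stood at 10.3, 8.96, 8.85 and 9.49 CPM in the GFP-positive sort and at 35.7, 38.8, 34.5 and 37.8 CPM in the GFP-negative sort (3.9-fold lower, log2FC −1.96, SE 0.10, adjusted p = 4.4e-08). The lines lay close together, with an SD of 0.655 CPM in the GFP-positive sort and of 1.94 CPM in the GFP-negative sort. Its neighbour Cdkn2b, another inhibitor of Cdk4 and Cdk6, differed less, at 38.7 ± 3.88 CPM against 54.2 ± 4.18 CPM (log2FC −0.49, SE 0.09, adjusted p = 0.0013).

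The other inhibitors of the same family as Cdkn1a did not pass the threshold. Cdkn1b, which holds cells in quiescence, was at 42.4, 40.6, 44.4 and 38.0 CPM against 45.6, 45.5, 49.0 and 71.0 CPM, without overlap, lower in all 4 lines and with the highest value in the GFP-negative library of line SN2294 (log2FC −0.34, 95% interval −0.64 to −0.04, adjusted p = 0.067). It was called without the GFP-negative library of line SN2285 (adjusted p = 0.049) or SN2286 (0.047), and when libraries were scaled by size only (0.015), while without that of line SN2294 its log2FC was −0.17. Cdkn1c, an imprinted inhibitor, was scarce, at 3.00, 2.48, 3.78 and 2.67 CPM against 2.47, 1.12, 1.16 and 2.05 CPM, and every GFP-positive library lay above every GFP-negative one. Its log2 fold change of 0.84 (95% interval 0.15 to 1.53) narrowly missed the threshold (adjusted p = 0.052), and it was called higher with line as a term (0.87, adjusted p = 0.032, paired fit) and without the GFP-negative library of line SN2285 (adjusted p = 0.019).

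Gadd45a, a stress sensor that acts on cell cycle kinases, was at 23.9, 24.5, 24.1 and 26.1 CPM in the GFP-positive sort and at 36.0, 32.9, 35.1 and 67.3 CPM in the GFP-negative sort (log2FC −0.78, SE 0.21, adjusted p = 0.015). The GFP-negative library of line SN2294, which also had the highest leukocyte sum, was the high one, and without it the log2 fold change was −0.49 (adjusted p = 0.0012). The polo-like kinases differed from each other. Plk2 stood at 245, 360, 282 and 293 CPM against 410, 513, 486 and 455 CPM (1.58-fold lower, adjusted p = 6.2e-04), whereas Plk3 was at 18.8 ± 2.51 CPM against 16.7 ± 1.44 CPM without a call (log2FC 0.17, 95% interval −0.10 to 0.44, adjusted p = 0.31; 0.10 without SN2293's GFP-positive library).

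**Figure D2:**
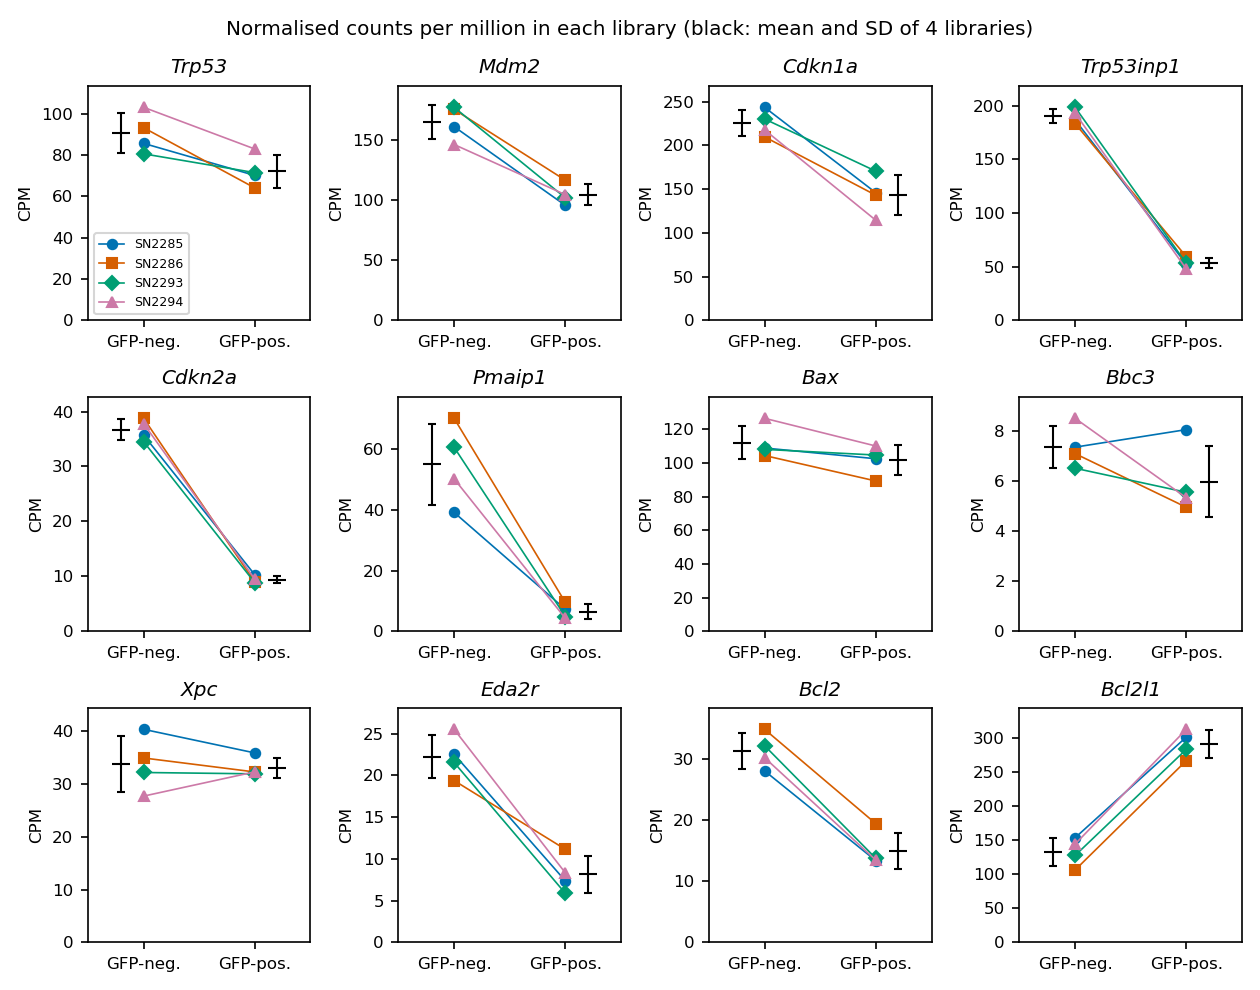
CPM (y axis, starting at 0) of 12 genes in the GFP-negative and GFP-positive library of each organoid line (x axis; coloured points joined by line), with the mean and SD of 4 libraries in black. Trp53inp1, Cdkn2a, Pmaip1, Eda2r and Bcl2 separate downward in all 4 lines and Bcl2l1 upward, while Bax, Bbc3 and Xpc overlap between the sorts.

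All 4 genes of the stress group were lower (100%, against 21.8% of all genes). Sesn1 and Sesn2 encode sestrins, which restrain the growth kinase mTORC1. Sesn1 stood at 17.1, 15.7, 17.6 and 16.8 CPM in the GFP-positive sort and at 28.7, 37.8, 30.1 and 31.5 CPM in the GFP-negative sort (1.91-fold lower, log2FC −0.93, SE 0.11, adjusted p = 3.1e-05). Sesn2 was at 43.4 ± 3.79 CPM against 54.1 ± 4.42 CPM (log2FC −0.31, adjusted p = 0.016). Its call was lost without SN2286's GFP-positive library or the GFP-negative one of line SN2285 (adjusted p = 0.053 in each case, fit without line). In the paired fit with all libraries the adjusted p of Sesn2 was 0.0049. Zmat3, an RNA-binding protein and p53 target, stood at 41.7, 48.9, 54.3 and 51.4 CPM against 73.4, 83.0, 102 and 113 CPM (1.89-fold lower, log2FC −0.92, SE 0.13, adjusted p = 2.3e-04). In both sorts line SN2285 was the lowest for this gene. Ei24, a membrane protein of the endoplasmic reticulum, was 1.23-fold lower (adjusted p = 0.0084), a call lost when line SN2285 was left out of the paired fit (adjusted p = 0.060).

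Among the 7 genes that start or carry out mitochondrial cell death, 4 were lower and 3 were uncalled (57.1% called, against 40.7% of all genes). The division ran through the direct p53 targets. Pmaip1, which encodes Noxa, a protein that neutralises Mcl1, showed the widest gap of the tested members. It stood at 7.28, 9.53, 4.91 and 4.29 CPM in the GFP-positive sort and at 39.2, 70.2, 60.6 and 50.2 CPM in the GFP-negative sort, 8.59-fold lower (log2FC −3.10, SE 0.28, adjusted p = 1.9e-05). By contrast Bbc3, which encodes Puma, was at 8.05, 4.95, 5.55 and 5.33 CPM against 7.35, 7.10, 6.51 and 8.51 CPM, with overlapping groups (log2FC −0.29, 95% interval −0.71 to 0.13, adjusted p = 0.26). Leaving out SN2285's GFP-positive library gave −0.46 for Bbc3, still uncalled (adjusted p = 0.067). Bax, the pore-forming effector, stood at 102, 89.3, 105 and 110 CPM against 109, 104, 108 and 126 CPM (log2FC −0.14, 95% interval −0.32 to 0.05, adjusted p = 0.23). For Bax the interval leaves out a difference of 2-fold in either direction. Bcl2l11, which encodes Bim, had a similarly narrow interval (59.3 ± 2.7 CPM against 64.2 ± 6 CPM, log2FC −0.11, −0.30 to 0.07, adjusted p = 0.31). When libraries were scaled by size only, both Bax (−0.29, adjusted p = 0.024) and Bcl2l11 (−0.27, adjusted p = 0.022) were called lower. Leaving out 1 library or line moved Bax between −0.17 and −0.07 (nearest to 0 without SN2294's GFP-negative or SN2286's GFP-positive library) and Bcl2l11 between −0.18 and −0.07 (without SN2286's or SN2285's GFP-negative library), with no call in either.

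The other genes called in this group differed by less than 1.5-fold. Apaf1, the scaffold of the apoptosome, was at 33.2, 39.3, 32.3 and 34.5 CPM against 49.5, 54.8, 53.8 and 43.3 CPM (log2FC −0.54, SE 0.10, adjusted p = 9.5e-04). Bid, which links death receptors to mitochondria, was at 31.0 ± 1.08 CPM against 39.1 ± 3.74 CPM (log2FC −0.34, adjusted p = 0.011); the call was lost when line SN2285 was left out of the paired fit (adjusted p = 0.070). Aen, a nuclease induced by p53, was at 27.4, 32.7, 34.0 and 41.1 CPM against 39.6, 44.9, 45.2 and 53.1 CPM (log2FC −0.43, SE 0.13, adjusted p = 0.019). Its groups overlapped, but the levels of the sorts followed the same order of lines, lowest in SN2285 and highest in SN2294. Leaving out either SN2285's GFP-positive or SN2294's GFP-negative library ended the call (adjusted p = 0.0501 in each case, fit without line). In the paired fit with all libraries the adjusted p of Aen was 3.5e-04.

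Of the 4 genes of the death receptor branch, 1 was lower and 3 were uncalled (25% called, against 40.7% of all genes). Eda2r, a receptor of the tumour necrosis factor family that p53 induces, stood at 7.37, 11.1, 5.87 and 8.32 CPM in the GFP-positive sort and at 22.5, 19.4, 21.5 and 25.5 CPM in the GFP-negative sort (2.71-fold lower, log2FC −1.44, SE 0.18, adjusted p = 4.6e-05). The other receptors did not pass. Fas was at 8.14, 8.96, 7.56 and 8.71 CPM against 10.4, 12.4, 9.37 and 9.14 CPM, low in both sorts and without overlap (log2FC −0.31, 95% interval −0.63 to 0.01, adjusted p = 0.11), and passed when line SN2294 was left out of the paired fit (adjusted p = 0.041). Tnfrsf10b, the mouse receptor for the death ligand Trail, was at 59 ± 3.44 CPM against 69.5 ± 16.2 CPM (adjusted p = 0.21), with 92.9 CPM in the GFP-negative library of line SN2294, and without that library its log2FC was −0.06. Casp8, the caspase that these receptors activate, was at 62 ± 3.72 CPM against 56.8 ± 3.48 CPM (log2FC 0.12, 95% interval −0.04 to 0.29, adjusted p = 0.23), and its sign turned with scaling by library size alone.

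The 3 survival genes of the Bcl2 family went in different directions. Bcl2l1, which encodes Bcl-xL, was the 1 member called higher in GFP-positive cells. It stood at 302, 267, 284 and 313 CPM in the GFP-positive sort and at 154, 106, 128 and 145 CPM in the GFP-negative sort (2.19-fold higher, log2FC 1.13, SE 0.11, adjusted p = 6.3e-06). Bcl2 showed the reverse, at 13.4, 19.4, 13.8 and 13.5 CPM against 28.1, 34.9, 32.2 and 30.2 CPM (2.1-fold lower, log2FC −1.07, SE 0.14, adjusted p = 6.2e-05). Both genes separated the sorts without overlap in all 4 lines. Mcl1, the short-lived survival protein that Noxa neutralises, stood at 373, 458, 407 and 399 CPM against 379, 406, 387 and 384 CPM, with overlapping groups (log2FC 0.07, 95% interval −0.09 to 0.24, adjusted p = 0.49).

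A ratio of genes within a library does not depend on how libraries are scaled, so opposing members were also set against each other in 2 ratios. The log2 ratio of Bax to Bcl2l1 was −1.56, −1.58, −1.44 and −1.51 in the GFP-positive sort and −0.50, −0.03, −0.24 and −0.19 in the GFP-negative sort. These ratios are of counts without regard to gene length, so only their difference between the sorts can be read. The difference was −1.28 and had the same sign in 4 of 4 lines (two-sided exact permutation p = 0.0286, the lowest value that 70 assignments allow; 0.0571 adjusted over the 2 ratios; exact sign-flip p = 0.125 over 4 lines, also the lowest value allowed). Most of the Bax to Bcl2l1 difference lay in Bcl2l1 (log2FC 1.13, against −0.14 for Bax). This ratio is therefore no support separate from the call of Bcl2l1. The log2 ratio of Bcl2l11 to Mcl1 differed by −0.18 (exact permutation p = 0.20 over unpaired libraries, adjusted p = 0.20). Within lines the difference was −0.28 to −0.09, with the same sign in 4 of 4 lines, and the exact sign-flip p was again 0.125, the lowest value allowed.

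Of the 5 genes of DNA repair and nucleotide supply, 2 (40%, against 40.7% of all genes called) were lower and 3 were uncalled. Ercc5, the endonuclease that cuts on the 3′ side of a damaged stretch in nucleotide excision repair, stood at 38.8, 37.9, 39.4 and 38.1 CPM in the GFP-positive sort and at 64.6, 61.2, 64.0 and 65.4 CPM in the GFP-negative sort. This 1.65-fold difference (log2FC −0.73, SE 0.07, adjusted p = 5.4e-06) was among the most even across lines, from −0.69 to −0.78. Polk, a polymerase that copies past damaged bases, was at 42.2 ± 4.9 CPM against 57.2 ± 3.55 CPM (log2FC −0.44, SE 0.10, adjusted p = 0.0029). The damage sensors Xpc and Ddb2, both known p53 targets, did not pass. Xpc was at 35.9, 32.3, 31.9 and 32.3 CPM against 40.4, 35.0, 32.2 and 27.7 CPM (log2FC −0.04, 95% interval −0.29 to 0.21), and Ddb2 was at 7.63 ± 1.46 CPM against 7.70 ± 0.778 CPM (−0.03, −0.40 to 0.35). Rrm2b, the p53-induced subunit of ribonucleotide reductase, stood at 21.7 ± 0.755 CPM against 21.1 ± 1.4 CPM (0.04, −0.17 to 0.25). The signs of Xpc, Ddb2 and Rrm2b each turned under at least 1 alternative; all 3 intervals leave out a 2-fold difference.

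**Figure D3:**
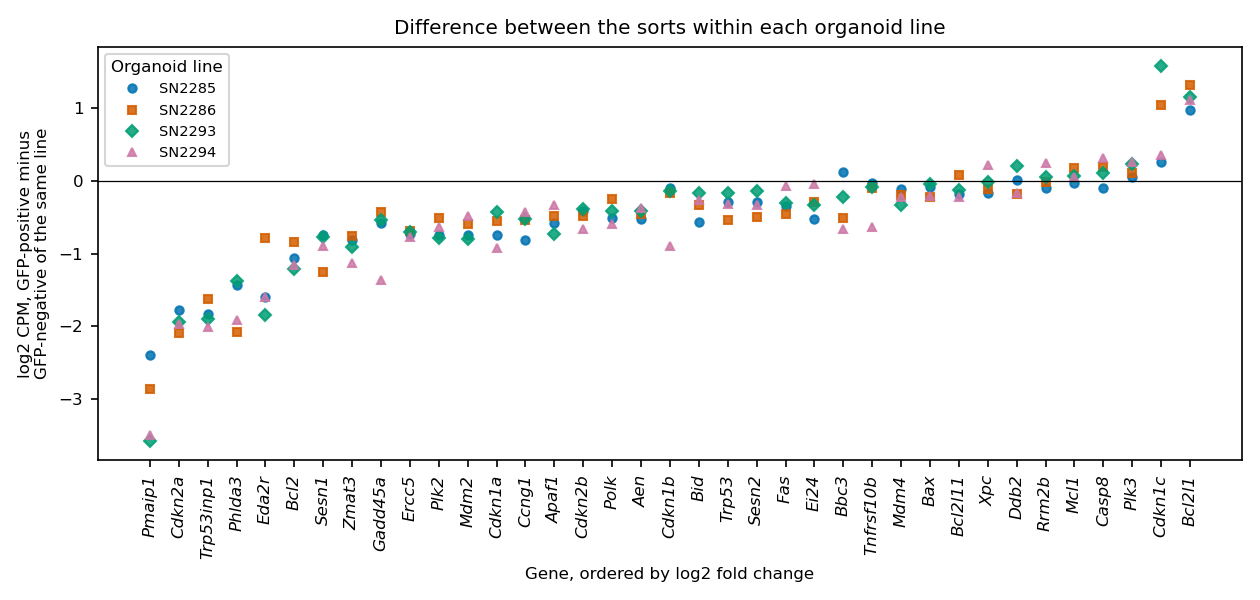
Difference in log2 CPM between the GFP-positive and the GFP-negative library of the same organoid line (y axis) for the 37 tested genes, ordered by fitted log2 fold change (x axis); each symbol is 1 line. Most genes have all 4 symbols on 1 side of 0, Pmaip1 ranges from −3.59 to −2.40, and line SN2294 lies apart from the others for Gadd45a and Cdkn1b.

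The difference between the sorts was lower in all 4 lines for 27 of the 37 tested members and higher in all 4 for 3 (Bcl2l1, Cdkn1c and Plk3). The same count was not made over all genes, so these numbers have no background to be read against. The size of the difference varied most for Pmaip1, from −2.40 in line SN2285 to −3.59 in line SN2293, for Cdkn1c, from 0.26 to 1.59, and for Eda2r, from −0.79 in line SN2286 to −1.85 in line SN2293. It varied little for Cdkn2a (−1.78 to −2.09), Trp53inp1 (−1.63 to −2.01) and Mdm2 (−0.48 to −0.80). In a fit with sort and line as terms, a test of line added after the data were seen called 0 of 37 members and 5.32% of all genes at an FDR of 0.05 (edgeR), and 7 members (18.9%) had an unadjusted p under 0.05, against 20.0% of all genes. The smallest were those of Zmat3 (0.0032), Aen (0.0046) and Plk2 (0.0057). The fit with line as a term kept all 24 calls and added Cdkn1c, which made 23 members lower and 2 higher; of all genes, 25.2% were lower and 22.8% higher in that fit, 48.0% in all in place of 40.7%.

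Other genes of the pathway gave a mixed picture. Called were 66.7% of the other p53 targets tested, 52.9% of the cyclin and proliferation genes and 27.3% of the upstream regulators. The other Bcl2 family and caspase genes (40.7%), other cell cycle brakes (40%) and other repair genes (36.8%) lay near the 40.7% of all genes tested. Of 30 tested p53 targets outside the members, 14 were lower and 6 higher, with a median log2 fold change of −0.27. Perp, a desmosome-associated protein that p63 also induces, was at 29.1 ± 4.62 CPM against 425 ± 21.5 CPM (log2FC −3.87), Sfn, which encodes 14-3-3 sigma and is abundant in stratified epithelium, at 130 ± 7.91 CPM against 315 ± 23.3 CPM (−1.28), and the epoxide hydrolase gene Ephx1 at 172 ± 36.6 CPM against 621 ± 87.9 CPM (−1.85). Dram1, a lysosomal regulator of autophagy, was in the opposite direction at 1144 ± 68 CPM against 232 ± 22 CPM (2.30). These 4 genes had the smallest p of the list (adjusted p from 1.6e-09 to 8.9e-06). With scaling by library size alone, 3 of the list were higher.

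Genes that act upstream on the p53 protein moved little, with 2 of 22 lower, 4 higher and a median of 0.06. The checkpoint kinase gene Chek2 was lower (log2FC −0.50, adjusted p = 4.2e-04), and the ubiquitin ligase genes Trim24 (0.37, adjusted p = 0.0022) and Huwe1 (0.25, adjusted p = 0.020) and the kinase gene Hipk2 (0.55, adjusted p = 0.0039) were higher. Scaling by library size alone ended the call of Huwe1 (adjusted p = 0.30), as did leaving out SN2293's GFP-positive library (0.057). With line as a term 4 of this list were lower and 6 higher. Of 27 other Bcl2 family, caspase and inhibitor genes, 5 were lower and 6 higher (median 0.01). The executioner caspase gene Casp6 (log2FC −0.89, adjusted p = 1.1e-05) and the Bax relative Bok (−0.70, adjusted p = 9.2e-05) were lower, and the death receptor kinase gene Ripk1 was higher (0.36, adjusted p = 0.0019). Bcl2a1b, 1 of several near-identical copies that can share reads, was at 1.87 ± 0.858 CPM against 0.374 ± 0.288 CPM and is uncertain.

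Of 10 other cell cycle brakes, 3 were lower and 1 was higher, with a median log2FC of 0.21. The antiproliferative genes Btg1 (log2FC −0.41) and Tob1 (−0.49) and the retinoblastoma relative Rbl2 (−0.32) were lower and Gadd45b was higher (0.86, adjusted p = 0.018). Cyclins, their kinases and proliferation genes lay on the other side of 0, with 8 of 17 higher, 1 lower and a median of 0.38. E2f2, a transcription factor of the S phase, was at 31.9 ± 2.05 CPM against 11.1 ± 2.28 CPM (log2FC 1.55, adjusted p = 3.0e-06), and E2f1 (0.58) and Ccnd3 (0.55) were higher too. The cyclin D2 gene Ccnd2 was lower, at 297 ± 12.8 CPM against 797 ± 65.4 CPM (log2FC −1.42, adjusted p = 7.7e-08). In excision repair and translesion synthesis 3 of 19 genes were higher and 4 lower (median 0.07). Lig1 (0.63) and Rrm1 (0.44), which serve DNA replication, were higher, and the excision repair genes Ercc1 (−0.74) and Xpa (−0.58) were lower.

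**Figure D4:**
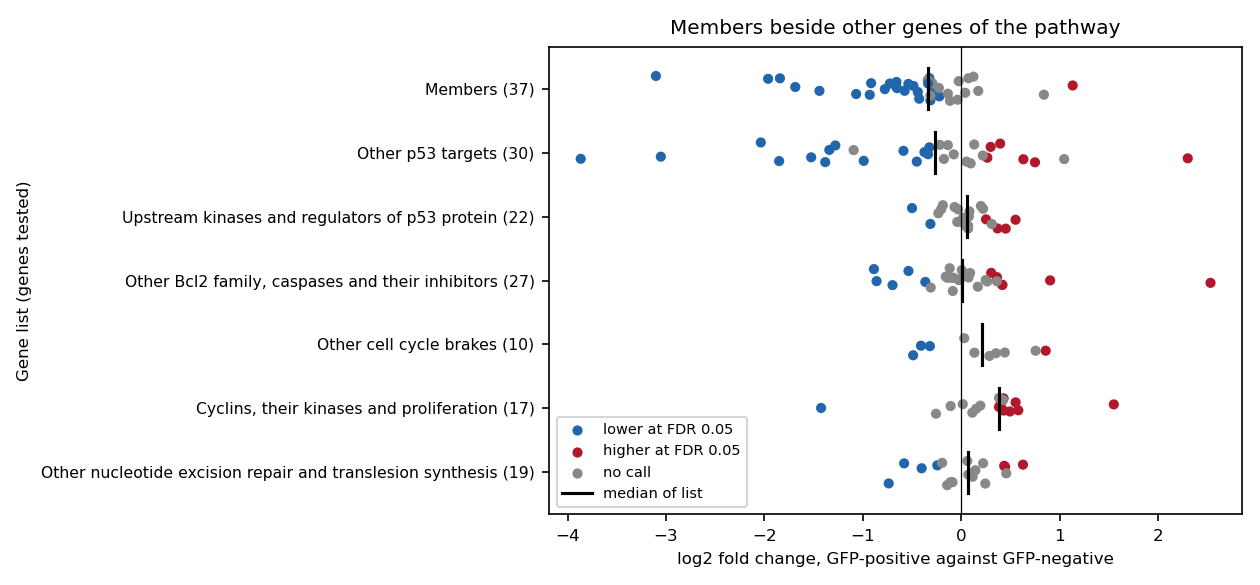
Log2 fold change between GFP-positive and GFP-negative cells (x axis) of each tested gene in the members and in 6 other lists of the pathway (y axis, number of genes tested in brackets), coloured by the call at FDR 0.05, with the median of each list as a bar. The medians of the members (−0.34) and of the other p53 targets (−0.27) lie below 0, and that of the cyclins and proliferation genes (0.38) lies above it.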

How the data were processed

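The authors deposited a table of counts per gene symbol, 1 column per library, which was taken to hold raw read counts without normalization. Per the submitters' processing notes, the build was mm9 and the tools were cutadapt 1.16, STAR 2.5.3a, Subread and featureCounts; not given in the sources used here: the annotation, strand setting and handling of reads with several matches. Reads of genes that overlap, on either strand, may be shared. In GENCODE M21, another build, exons of 4 members overlap a protein-coding gene. Bid overlaps Bcl2l13, Ddb2 overlaps Acp2 and Plk3 overlaps Tctex1d4 on opposite strands, and Bax overlaps Gm45808 on the same strand. Exons of Gadd45a overlap those of E230016M11Rik, a tested gene listed as a processed transcript, on the opposite strand.

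Counts were analysed in R 4.3.3 with edgeR 4.0.16 (filterByExpr, about 10 counts in at least 4 libraries and 15 in total, TMM factors, robust quasi-likelihood test with the sort as the only term, Benjamini-Hochberg adjustment over 12848 genes, FDR 0.05). CPM uses the TMM-scaled library size. SE is the log2 fold change divided by the square root of F. Within-line differences and ratios use log2 CPM with a prior count of 2. The code of the test was run on simulated counts of independent libraries with no line effect. That run says little about error rates in these data, where lines are shared between the sorts. Libraries of the same line deviated together (r = 0.32 to 0.46 across genes after removal of group means; different lines −0.31 to −0.003), and the labels name the line, so they are paired. A paired fit has line as a term. Alternatives were this fit, other scaling and filters, DESeq2 1.42.0 and leaving out libraries or lines. Intervals and p-values rest on 4 libraries per group, and without molecular identifiers a read is not an independent molecule.

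The members and lists were chosen with earlier results of these data known. All members are named; of each other list, the up to 4 genes with the smallest p and Trp63 are.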

Additional observations from a re-analysis of the deposited data

Results flagged for a closer look

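In 76 groups of 4 libraries (38 genes in both sorts), 4 had 1 library far from the other 3; chance alone flags about 1 in 20 groups. In the GFP-negative libraries, line SN2294 stood apart for Cdkn1b (71.0 CPM, the others at 45.5 to 49.0) and for Gadd45a (67.3 CPM, the others at 32.9 to 36.0). That library was the shallowest, with 5910344 counts, and its leukocyte markers summed to 92.5 CPM against 18.2 to 30.4 CPM in the other GFP-negative libraries; the part of either in these values was not tested. Without it the log2 fold change of Cdkn1b was −0.17 in place of −0.34. In the GFP-positive libraries, line SN2286 stood apart for Bcl2 (19.4 CPM, the others at 13.4 to 13.8), and without it the log2 fold change was −1.21 in place of −1.07. Line SN2285 stood apart for Xpc (35.9 CPM, the others at 31.9 to 32.3).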

How the results depend on the processing

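Of the 24 called members, 18 kept their call under all 18 alternatives, and Trp53, Mdm4, Sesn2, Ei24, Bid and Aen lost it under at least 1, with the direction kept. Members called lower numbered 21 to 27 and higher 1 or 2 over all alternatives. With line as a term (replicate block) 2 members were higher, 1 of them an arrest gene, as were 2 other brakes and 5 repair genes, and 4 upstream regulators were lower and 6 higher; the pairing changed no other call of a member. Scaling by library size alone moved the median over all genes from −0.01 to −0.16 (log2) and the calls from 2430 higher and 2801 lower to 1505 and 4199 (26.4% higher in place of 46.5%). It added Bax, Bcl2l11, Cdkn1b and Fas to the members called lower. It gave as lower 2 death receptor genes, 3 cyclin and proliferation genes, 8 other Bcl2 family genes, 8 other repair genes and 5 upstream regulators, and as higher 3 other p53 targets and 2 upstream regulators. With it the signs of Casp8 (−0.027), Mcl1 (−0.080) and Rrm2b (−0.11) turned; none of these was called. It enlarged Mdm4 (−0.37) and Ei24 (−0.45) and reduced Ripk1 (0.21), Rrm1 (0.29) and Trim24 (0.22) by over 1.5 times. DESeq2's test called 5 other repair genes higher. Leaving out 1 library or line gave 1 to 2 members higher, 0 to 1 arrest genes higher, 1 to 2 death receptor genes lower, 1 to 2 cyclin genes lower, 1 to 3 other brakes higher, 3 to 5 other repair genes higher and 2 to 7 lower, 3 to 7 other p53 targets higher (3 to 6 without 1 library) and 1 to 4 upstream regulators lower. Under these the log2 fold change of Rrm2b ran from −0.0155 to 0.087, of Xpc from −0.11 to 0.061 and of Ddb2 from −0.15 to 0.078. In paired fits without 1 line, Xpc turned to 0.0037 and 0.026 and Ddb2 to 0.030 and 0.041. The Bax to Bcl2l1 difference ran from −1.36 to −1.19 without 1 line, where 3 lines cannot reach the threshold. The causes were not tested. Low counts limit Trp73, Cdkn1c, Bbc3, Ddb2 and Fas. The called genes Pmaip1 (61 to 100 counts) and Eda2r (73 to 128 counts) had similarly low counts in the GFP-positive sort.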
